A study of Homo sapiens with 16 samples.

Results

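SH2D5, CITED4, GPAT3 and AKAP12 are 4 of the 42351 genes counted in cells expressing wt MET and in cells expressing MET∆14 that were given hepatocyte growth factor (HGF). They were picked because their mRNA rose more after HGF in NCI-H596 than in A549, and all 4 were among the 15067 genes that had enough counts to be tested. NCI-H596, a lung adenosquamous carcinoma line, carries MET that lacks exon 14 (MET∆14). A549, a lung adenocarcinoma line, is labelled as the line with wt MET, whereas the text of the study gives another lung adenocarcinoma line as its wt MET cells. Cells of both lines were deprived of serum, for 12 h according to the labels and for longer according to the methods of the study, and polyA RNA was sequenced without HGF (0 h) or after 3, 6 or 12 h of HGF, with 2 libraries per line and time. Each form of MET is therefore represented by 1 line, so that the line and the form of MET cannot be told apart. The only cells without HGF were those at 0 h, so time without serum and HGF cannot be told apart either.

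HGF is the ligand of MET, a receptor tyrosine kinase whose activation in epithelial cells switches on the MAP kinase, PI3 kinase and STAT3 pathways and is known for driving cell scattering and migration. Exon 14 encodes part of the juxtamembrane segment, with the tyrosine that recruits the ubiquitin ligase CBL to the activated receptor. The 4 genes act in separate processes. SH2D5 encodes an adaptor-like protein with an SH2 domain that binds BCR, a GTPase-activating protein for Rac. CITED4 encodes a transcriptional co-activator that binds CBP and p300 and works with TFAP2 factors. GPAT3 encodes an acyltransferase of the endoplasmic reticulum that starts glycerolipid synthesis from glycerol 3-phosphate. AKAP12, also called gravin, is a scaffold that anchors protein kinase A and protein kinase C near the plasma membrane.

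Total counts per library ranged from 13226488 to 21970052 in A549 and from 10158590 to 23909304 in NCI-H596. The 12 h replicates of NCI-H596 differed more from each other than those of any other condition (chi-square of their counts per degree of freedom 34.1, against 2.75 to 9.80 elsewhere). Of the 6 epithelial markers, KRT7, KRT8 and KRT18 stood at 225 CPM (counts after scaling for library size) or more in every library. EPCAM (0.868 to 2.97 CPM), CDH1 (2.54 to 12.6 CPM) and KRT19 (26.7 to 53.1 CPM) were low in A549, against 24.4 to 37.4, 80.7 to 125 and 931 to 1754 CPM in NCI-H596. The 5 squamous markers (TP63, KRT5, KRT14, KRT6A and DSG3) summed to 2348 to 3336 CPM in NCI-H596 and to 0.970 to 3.10 CPM in A549. CDKN2A, which is deleted in A549, had 0 counts in every A549 library and at least 86.0 CPM in NCI-H596. Alveolar markers were near 0 in both lines (at most 2.26 CPM in sum), so the origin of A549 from the alveolar epithelium was not visible in these genes. Among leukocyte markers, PTPRC and CD3E had at most 2 counts in any library, while CD68 stood at 34.3 to 41.8 CPM in A549 and 108 to 154 CPM in NCI-H596. Among fibroblast markers, COL1A2 and DCN had at most 3 counts, COL1A1 stood at 10.8 to 19.0 CPM in A549 and 15.9 to 33.3 CPM in NCI-H596, and COL3A1 at 170 to 328 CPM in NCI-H596 and at most 0.485 CPM in A549. The part of such differences between the lines in the results was not tested.

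On hg38, SH2D5 lies on the reverse strand at chr1:20719731-20732837 and CITED4, which has a single exon, on the reverse strand at chr1:40861054-40862363. GPAT3 lies on the forward strand at chr4:83535914-83605875 and AKAP12 on the forward strand at chr6:151239967-151358559. None of their exons overlapped another gene of GENCODE version 44 on either strand. Counts per gene do not separate transcripts that start at different sites, and AKAP12 has 3 separate start sites in RefSeq.

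RefSeq promoters (GRCh38.p14) were found for 3 of the 4 genes, and 5 windows of 250 bases before a start site were read. Those of CITED4 and of the first and second AKAP12 start sites are printed 5′ to 3′ on the strand of the gene, to show what lies before genes that were picked for a rise in NCI-H596. Capitals mark matches, on either strand, to motifs that were chosen after the sequences had been seen. The CITED4 window is chr1:40862364-40862613, and the AKAP12 windows are chr6:151239717-151239966 and chr6:151325281-151325530.
CITED4: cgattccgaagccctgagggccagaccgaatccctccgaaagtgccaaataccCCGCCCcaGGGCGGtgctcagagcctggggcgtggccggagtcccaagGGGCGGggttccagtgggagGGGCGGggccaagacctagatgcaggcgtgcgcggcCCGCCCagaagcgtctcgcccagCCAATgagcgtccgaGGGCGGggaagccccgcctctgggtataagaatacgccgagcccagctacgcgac
AKAP12 first start: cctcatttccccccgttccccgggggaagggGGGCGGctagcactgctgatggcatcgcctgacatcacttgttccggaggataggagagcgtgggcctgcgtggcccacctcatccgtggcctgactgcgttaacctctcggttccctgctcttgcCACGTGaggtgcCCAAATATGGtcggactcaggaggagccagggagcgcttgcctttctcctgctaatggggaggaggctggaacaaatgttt
AKAP12 second start: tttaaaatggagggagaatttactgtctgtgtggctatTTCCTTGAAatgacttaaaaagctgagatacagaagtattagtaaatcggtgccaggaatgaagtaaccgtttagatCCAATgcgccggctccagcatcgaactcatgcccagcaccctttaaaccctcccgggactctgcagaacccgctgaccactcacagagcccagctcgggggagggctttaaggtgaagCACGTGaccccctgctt

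The motifs searched were the AP-1 site as TGANTCA, the core of the cAMP response element as TGACG, the CArG box bound by serum response factor, the E-box as CACGTG, the ETS site as CCGGAAG, the FOXO site as GTAAACA, the STAT site TTCNNNGAA, the box CCAAT bound by NF-Y, the TATA box as TATAAA, and the GC box as GGGCGG. The CITED4 window held 6 GC boxes and 1 CCAAT, motifs present in 42.6% and 32.0% of the 35116 RefSeq promoter windows of this length. All 3 AKAP12 windows held CACGTG, which is present in 6.3% of windows. The first AKAP12 window also held a CArG box, 81 to 72 bases before the start (1.2% of windows), and 1 GC box, and the second held TTCNNNGAA (6.6%) and CCAAT. The GPAT3 window, of which 193 bases lie in an annotated exon of GPAT3 and which is not printed, held 2 matches to TGACG (21.2% of windows) and 1 GC box. The third AKAP12 window held 2 GC boxes besides CACGTG. No marked match overlapped another, and the letters of AP-1, ETS, FOXO and TATAAA were in none of the 5 windows. A match describes letters and is not a binding site.

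Before HGF, all 4 genes were lower in NCI-H596 than in A549. By a test, which was not used for the 4 genes, 39.6% of all tested genes were called lower. The median log2 difference at 0 h over all genes, called or not, was 0.02. After HGF each of the 4 stood higher in NCI-H596 and reached or came near the level of A549, except AKAP12, which stayed far below it. SH2D5 and GPAT3 stood close to their 0 h level in A549, CITED4 was lower there after HGF, and AKAP12 was higher in A549 too. These are the values by which the genes were picked, so they are given with standard errors (SE) and without a test. Levels are CPM scaled by TMM, and differences are log2 fold changes from the edgeR fit.

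**Figure D1:**
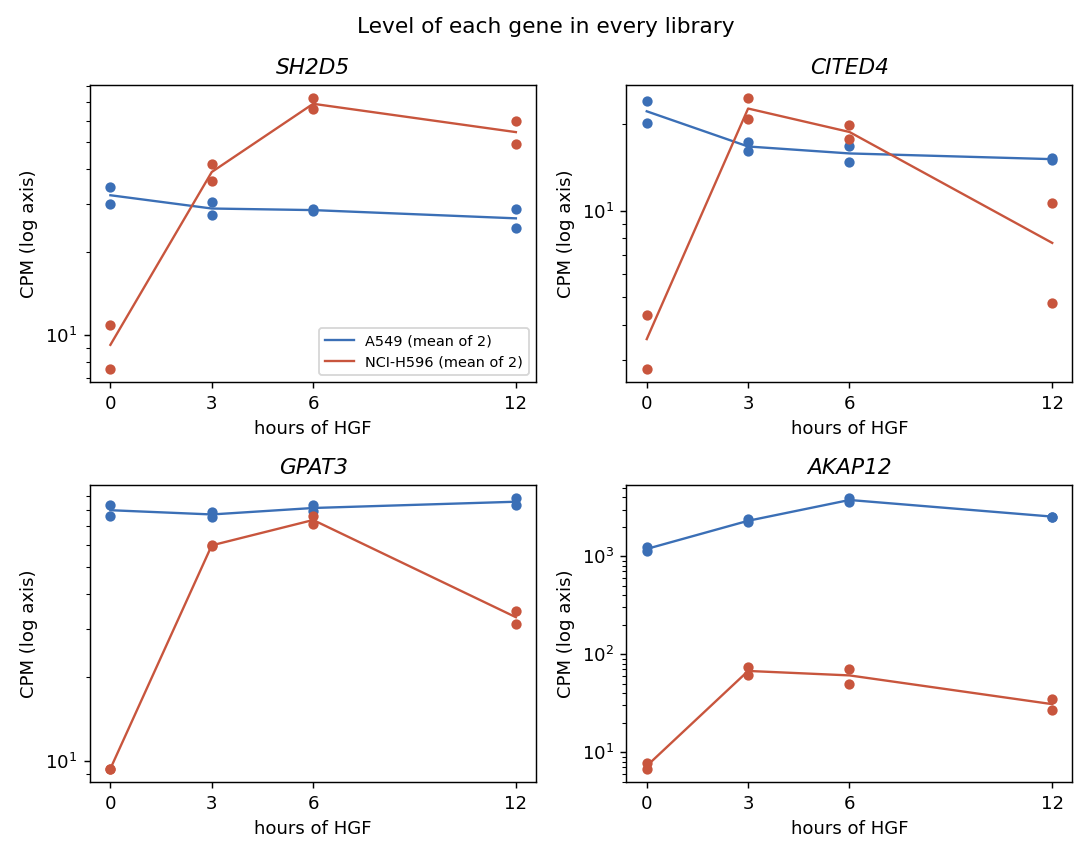
Level of each gene in CPM (log axis, a separate scale per gene) against hours of HGF. Each point is 1 library and each line joins the means of the 2 libraries. In NCI-H596 all 4 genes were lowest at 0 h, and AKAP12 in A549 lay above AKAP12 in NCI-H596 at each time.

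SH2D5 had 29.8 and 34.6 CPM in the A549 libraries at 0 h, 30.3 and 27.3 at 3 h, 28.1 and 28.7 at 6 h, and 24.4 and 28.7 at 12 h. In NCI-H596 it had 7.56 and 10.9 CPM at 0 h, 41.9 and 36.2 at 3 h, 65.9 and 72.1 at 6 h, and 59.7 and 49.3 at 12 h. The A549 libraries at 0 and 3 h overlapped and those at 6 and 12 h lay slightly below both at 0 h, while every NCI-H596 library with HGF lay above both at 0 h. Against 0 h, the log2 fold change in NCI-H596 was 2.06 ± 0.160 (SE, n = 2) at 3 h, 2.88 ± 0.158 at 6 h and, at 12 h, 2.55 ± 0.159. The corresponding A549 values were -0.16, -0.18 and -0.28. NCI-H596 began at 0.287 times the mean CPM of A549 and stood at 2.43 times that level at 6 h, so the order of the lines changed. SH2D5 was the gene that kept most of its rise, with 75.7% of the peak gain in CPM left at 12 h.

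CITED4 had 20.3 and 24.1 CPM in A549 at 0 h, 17.4 and 16.1 at 3 h, 16.8 and 14.8 at 6 h, and 15.01 and 15.2 at 12 h. In NCI-H596 it had 2.80 and 4.32 CPM at 0 h, 24.6 and 20.8 at 3 h, 17.7 and 19.8 at 6 h, and 4.76 and 10.7 at 12 h. All A549 libraries with HGF lay below both at 0 h, and all NCI-H596 libraries with HGF lay above both at 0 h. The log2 fold change against 0 h in NCI-H596 was 2.64 ± 0.272 (SE, n = 2) at 3 h, 2.38 ± 0.272 at 6 h and, at 12 h, 1.01 ± 0.304, whereas the A549 values were -0.41, -0.49 and -0.55. The 12 h value rested on replicates that stood apart, and was 0.37 without replicate 2 of NCI-H596 at 12 h and 1.55 without replicate 1. The peak came at 3 h, 6.37 times the mean CPM at 0 h, and 21.7% of that gain was left at 12 h.

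GPAT3 had 83.7 and 76.4 CPM in A549 at 0 h, 79.1 and 75.4 at 3 h, 79.6 and 83.4 at 6 h, and 83.3 and 88.4 at 12 h. In NCI-H596 it had 9.39 CPM in both libraries at 0 h, 59.4 and 60.2 at 3 h, 76.3 and 71.2 at 6 h, and 31.3 and 34.7 at 12 h. A549 libraries at every later time overlapped those at 0 h, whereas the NCI-H596 groups did not overlap at any time. In NCI-H596 the log2 fold change against 0 h was 2.67 ± 0.0965 (SE, n = 2) at 3 h, 2.97 ± 0.0959 at 6 h and, at 12 h, 1.81 ± 0.0988. The A549 values lay between -0.05 and 0.10. From 8.53 times higher in A549 at 0 h, the ratio of the mean CPM fell to 1.10 at 6 h and was 2.60 at 12 h.

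AKAP12 had 1144 and 1234 CPM in A549 at 0 h, 2232 and 2375 at 3 h, 3596 and 3916 at 6 h, and 2538 and 2545 at 12 h. In NCI-H596 it had 6.78 and 7.70 CPM at 0 h, 73.6 and 61.4 at 3 h, 50.2 and 71.3 at 6 h, and 34.9 and 27.0 at 12 h. Both lines lay above their 0 h libraries at every later time, and the lines did not overlap. The log2 fold change against 0 h was 3.21 ± 0.182 (SE, n = 2), 3.07 ± 0.181 and 2.10 ± 0.186 at 3, 6 and 12 h in NCI-H596, and 0.95 ± 0.145, 1.66 ± 0.147 and 1.10 ± 0.145 in A549. The larger rise of NCI-H596 held for the fold and not for the amount: the peak lay 60.3 CPM above 0 h in NCI-H596 and 2567 CPM above it in A549. The mean CPM of A549 was 164 times that of NCI-H596 at 0 h, 34.1 times at 3 h, 61.8 times at 6 h and 82.2 times at 12 h.

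**Figure D2:**
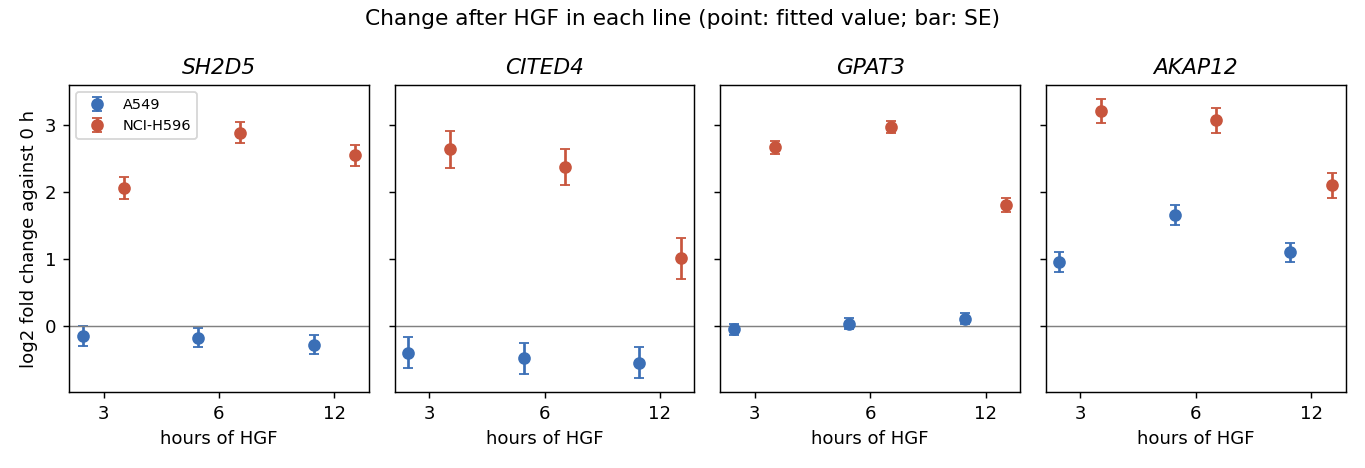
Log2 fold change against 0 h of the same line (bars, SE) for each gene and time, with A549 and NCI-H596 side by side. NCI-H596 lies between 1.01 and 3.21, and AKAP12 is the gene with positive values in A549 of 0.95 or more.

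The 3 h libraries of NCI-H596 lay above those at 0 h for each of the 4 genes, and the share of all genes without such overlap was not counted. By the test, which is another measure, 15.5% of all tested genes were called higher at 3 h. Since the genes were picked on this contrast, nothing is read from their count. Places among all tested genes are by the difference between the mean responses of the lines. This is NCI-H596 minus A549, averaged over 3, 6 and 12 h. By it, 79 genes had a larger difference than SH2D5 (2.70 ± 0.182, SE), 107 than CITED4 (2.49 ± 0.308), 115 than GPAT3 (2.46 ± 0.107) and 356 than AKAP12 (1.56 ± 0.197). Genes with few counts, such as SH2D2A (2.99), are among those placed above, and the high places follow from the choice.

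**Figure D3:**
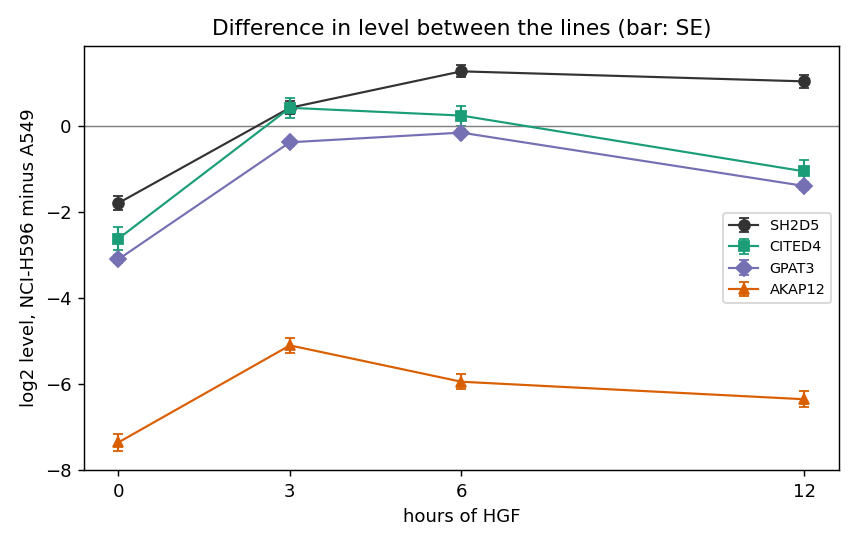
Log2 level in NCI-H596 minus A549 (bars, SE) against hours of HGF for each gene. SH2D5 and CITED4 cross 0 by 3 h, GPAT3 comes within 0.14 of 0 at 6 h, and AKAP12 stays at -5.10 or lower.

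The steps between the times with HGF are another contrast than the one by which the genes were picked and hold no 0 h library. They do use the HGF libraries that entered the choice, so the p-values of the 4 genes are not independent of it, and nothing is read from how many were called. P-values are from edgeR's quasi-likelihood test, adjusted by Benjamini and Hochberg over all 15067 genes, with a threshold of 0.05. The later course is given gene by gene, and whether it differs among the genes was not tested. From 3 to 6 h in NCI-H596, SH2D5 rose further by 0.83 ± 0.140 (SE, n = 2, edgeR adjusted p = 0.00195) and GPAT3 by 0.30 ± 0.0825 (edgeR adjusted p = 0.0308), whereas the values of CITED4 (-0.26, edgeR adjusted p = 0.544) and AKAP12 (-0.14, edgeR adjusted p = 0.641) did not pass the threshold. In all, 2 of the 4 picked genes were called higher, and 4.67% of all genes. The GPAT3 call was lost in 12 of the 16 fits that left out 1 library, those without a library of A549 at 3, 6 or 12 h or of NCI-H596 at 0, 3 or 6 h (value 0.24 to 0.34, edgeR adjusted p 0.0538 to 0.22).

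From 6 to 12 h in NCI-H596, CITED4 fell by 1.37 on the log2 scale (SE 0.257, edgeR adjusted p = 0.00265), GPAT3 fell by 1.17 (SE 0.0860, edgeR adjusted p = 1.75e-06) and AKAP12 fell by 0.97 (SE 0.159, edgeR adjusted p = 0.000915). SH2D5 had -0.34 ± 0.138 (edgeR adjusted p = 0.100), which passed the threshold without replicate 1 of NCI-H596 at 12 h (-0.49, edgeR adjusted p = 0.0335). In all, 3 of the 4 picked genes were called lower, and 10.3% of all genes. The CITED4 step lay between -1.99 and -0.83 when 1 of the 12 h libraries was left out, and it kept its call (edgeR adjusted p at most 0.0403).

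In A549, AKAP12 rose from 3 to 6 h by 0.71 ± 0.144 (SE, n = 2, edgeR adjusted p = 0.0146) and fell from 6 to 12 h by 0.56 (SE 0.144, edgeR adjusted p = 0.0193). It was the 1 gene of 4 called in each step, while 1.44% of all genes were called higher in the first and 5.98% lower in the second. Without either library of A549 at 3 or 6 h the first call was lost (edgeR adjusted p 0.0541 to 0.19), and without either at 6 or 12 h the second (edgeR adjusted p 0.0515 to 0.125). AKAP12 thus had its highest mean at 6 h in A549, and in NCI-H596 at 3 h with a 6 h value that the test did not separate from it. The steps of SH2D5, CITED4 and GPAT3 in A549 lay between -0.10 and 0.08 (edgeR adjusted p 0.637 to 0.986). Whether the steps differ between the lines was not tested. The number of all genes called in a step, in either direction, depended on single libraries. Without 1 library it ranged from 96 to 1264 (467 with all) for 3 to 6 h and from 686 to 3182 (1743) for 6 to 12 h in A549, with the lowest values without replicate 2 of A549 at 6 h and replicate 1 of A549 at 12 h. In NCI-H596 it ranged from 459 to 3100 (1472) and from 852 to 6434 (2806), both lowest without replicate 2 of NCI-H596 at 6 h. In all 4 cases the highest number came without a 12 h library of NCI-H596.

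Over the 12 libraries with HGF, each centred on the 0 h mean of its line, the log2 CPM of the 4 genes correlated with each other at 0.846 (SH2D5 and AKAP12) to 0.970 (CITED4 and GPAT3). These libraries share 4 libraries at 0 h, and come from 6 conditions of 2 lines. Their main contrast is the larger response of NCI-H596, by which the genes were picked, so high values followed from the choice and no p is given. Among 11886 genes whose log2 CPM averaged 1 or more, the 5 genes most like SH2D5 were PAQR5 (r = 0.994), a membrane progestin receptor, WDR1, which promotes actin disassembly, TGM2, the tissue transglutaminase, SELENOI, an ethanolamine phosphotransferase, and SPATS2. TGM2 went from 44.7 ± 2.39 CPM (SD, n = 2) at 0 h to 234 ± 63.6 at 6 h in NCI-H596 and from 71.8 ± 5.60 to 61.5 ± 0.689 in A549. Most like CITED4 were AKIRIN1 (r = 0.987), the adenosine receptor gene ADORA2B, KCTD5, EHD4, which acts in endocytic recycling, and PROSER2. ADORA2B went from 26.8 ± 1.98 to 71.6 ± 1.79 CPM at 3 h in NCI-H596 and was at 67.6 ± 3.94 at 6 h and 36.9 ± 8.09 at 12 h.

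The genes most like GPAT3 included NOP56 (r = 0.993), LYAR and DDX21, which encode nucleolar proteins of ribosome production, besides TIMM8A, for import into mitochondria, and the sorting nexin gene SNX8. DDX21 went from 148 ± 11.9 CPM (SD, n = 2) at 0 h to 525 ± 2.97 at 6 h in NCI-H596. The genes most like AKAP12 included BCAR3 (r = 0.976), an adaptor with an SH2 domain that binds p130Cas, APBB2, the kinase gene BMP2K and ASAP2, which acts on ARF GTPases. The mean log2 response of BMP2K was 1.16 ± 0.0923 (SE) in A549 and 1.72 ± 0.0939 in NCI-H596, given without a test because the gene was chosen for its likeness to AKAP12. With Spearman's correlation the 5 genes were shared in 0 cases for SH2D5, CITED4 and GPAT3 and in 2 for AKAP12, so the order of such close values depended on the measure.

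The relatives and partners of the 4 genes were then read in 6 lists, without the 4 genes themselves. Their test is the mean log2 response over 3, 6 and 12 h in each line and the difference between the lines, NCI-H596 minus A549. Of all tested genes, 17.5% were called higher and 20.1% lower in A549, 21.3% and 25.3% in NCI-H596, and 15.5% and 13.5% in the difference. Without 1 library the number called ranged from 3493 to 7093 (5655 with all) in A549, from 4580 to 8295 (7016) in NCI-H596 and from 3042 to 6107 (4377) in the difference, lowest without replicate 1 at 0 h of A549 for the first and of NCI-H596 for the others. The median response over all genes was -0.05 in both lines and the median difference 0.02.

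**Figure D4:**
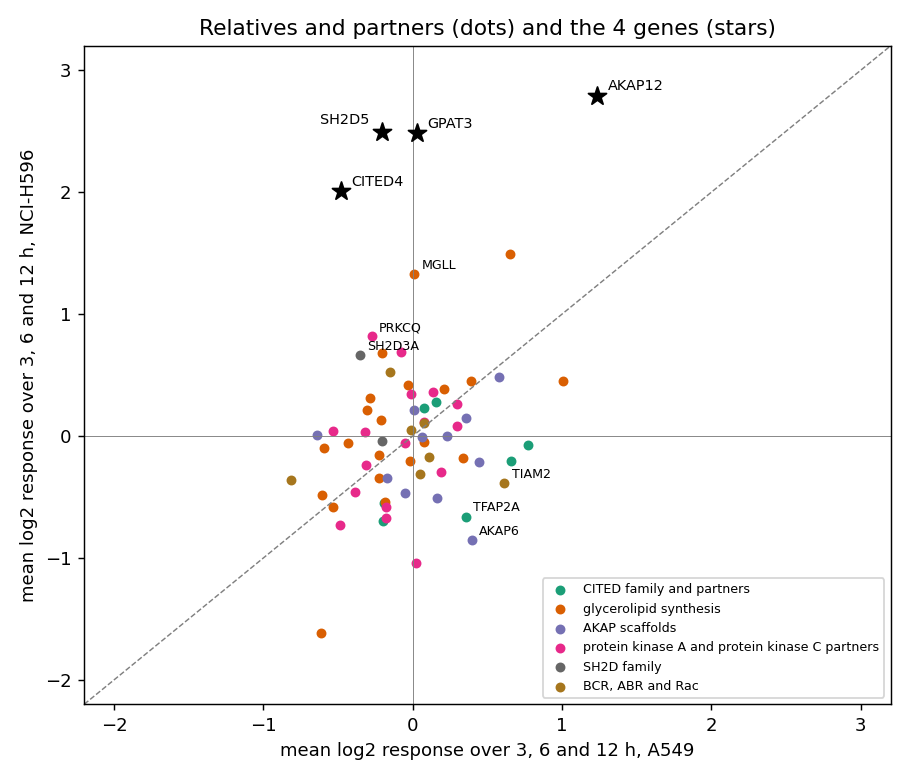
Mean log2 response over 3, 6 and 12 h in NCI-H596 against that in A549, for 65 of the 76 tested list genes (dots, coloured by list) and the 4 genes (stars). The other 11 had a condition with at most 3 counts in each library and are not shown, and the dashed line marks equal responses. The stars lie above all dots shown, a place set by the choice of the 4 genes, so nothing is read from it.

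Among 8 tested relatives and partners of CITED4, 3 were called higher and 1 lower in A549. In NCI-H596, 2 were called higher and 3 lower, and in the difference 0 higher and 5 lower (median difference -0.43). The genes of the CBP and p300 acetyltransferases rose in A549, CREBBP by 0.66 ± 0.125 (SE, edgeR adjusted p = 0.000872) and EP300 by 0.77 ± 0.140 (edgeR adjusted p = 0.000677). In NCI-H596 their values were -0.21 (edgeR adjusted p = 0.177) and -0.08 (edgeR adjusted p = 0.685). These means rested on 12 h replicates that stood apart, with 143 and 235 CPM for CREBBP and 87.0 and 152 CPM for EP300. They were -0.34 and -0.23 without replicate 1 of NCI-H596 at 12 h, and -0.11 and 0.03 without replicate 2. At 6 h the values were -0.39 and -0.25. The differences between the lines of -0.86 and -0.85 passed the test (edgeR adjusted p = 0.00157 and 0.00413). TFAP2A, a TFAP2 factor, went from 112 ± 0.209 CPM (SD, n = 2) at 0 h to 59.6 ± 1.09 at 6 h in NCI-H596 and from 13.1 ± 0.443 to 20.8 ± 0.332 in A549 (difference -1.01 ± 0.131, SE, edgeR adjusted p = 4.80e-05). TFAP2C fell by 0.70 in NCI-H596 (SE 0.0691, edgeR adjusted p = 1.28e-06, difference -0.50, edgeR adjusted p = 0.00164). The paralog CITED2 fell in NCI-H596 by 0.55 (SE 0.0897, edgeR adjusted p = 0.000146). Its difference of -0.36 (edgeR adjusted p = 0.0445) lost its call in 10 of the 16 fits without 1 library, with edgeR adjusted p up to 0.201 without replicate 1 of A549 at 0 h. The paralog CITED1 had at most 5 counts in any library and was not tested. The 5 genes called in the difference, CITED2 among them, all had a negative value. The 3 not called had positive values, 0.12 for HIF1A, 0.15 for EPAS1 and 0.95 for TFAP2E, which had few counts. The sign of CITED4 was set by the choice, so nothing is read from a comparison with it.

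Of 22 tested glycerolipid genes, 4 were called higher and 7 lower in A549, 7 and 7 in NCI-H596, and 6 higher and 1 lower in the difference (median difference 0.15). Without replicate 1 of A549 at 0 h, 2 genes in place of 11 were called in A549. MGLL, the monoacylglycerol lipase, went from 50.1 ± 0.632 CPM (SD, n = 2) at 0 h to 153 ± 10.52 at 12 h in NCI-H596 and from 83.4 ± 2.52 to 88.9 ± 3.97 in A549 (difference 1.32 ± 0.112, SE, edgeR adjusted p = 1.08e-06). AGPAT4, an acyltransferase of the next step, rose in both lines, from 40.2 ± 0.187 to 143 ± 28.3 CPM in NCI-H596 and from 8.79 ± 0.868 to 16.7 ± 0.414 in A549 (difference 0.84 ± 0.173, edgeR adjusted p = 0.00192). AGPAT5, of the same family, rose by 0.68 ± 0.0813 in NCI-H596 (difference 0.89, edgeR adjusted p = 2.95e-05). GPAT4, the other acyltransferase of the endoplasmic reticulum for this first step, had 38.2 ± 2.44 CPM at 0 h and 52.3 ± 8.88 at 12 h in NCI-H596, and 89.4 ± 0.297 and 79.4 ± 0.838 in A549 (difference 0.59 ± 0.116, edgeR adjusted p = 0.00131). GPAM, the mitochondrial enzyme, had a difference of 0.52 ± 0.157 (edgeR adjusted p = 0.0216), which was 0.30 without replicate 1 of A549 at 0 h (edgeR adjusted p = 0.206) and 0.43 without replicate 1 of NCI-H596 at 0 h (edgeR adjusted p = 0.126). The mean response of GPAT4 was 0.31 in NCI-H596 (edgeR adjusted p = 0.00765) and -0.28 in A549 (edgeR adjusted p = 0.0107). That of GPAM was 0.21 in NCI-H596 (edgeR adjusted p = 0.123) and -0.31 in A549 (edgeR adjusted p = 0.0474). The GPAM value in A549 was -0.08 without replicate 1 of A549 at 0 h. The difference of GPAT3 was set by the choice, so nothing is read from a comparison with it.

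Among 13 tested AKAP scaffolds besides AKAP12, 5 were called higher and 1 lower in A549, 2 higher and 3 lower in NCI-H596, and 1 higher and 3 lower in the difference (median difference -0.22). The number called in the difference was 4, and it was 7 without replicate 1 of NCI-H596 at 12 h and 2 without replicate 1 of A549 at 0 h. AKAP10 went from 80.4 ± 6.58 CPM (SD, n = 2) at 0 h to 122 ± 0.553 at 3 h in A549 and from 37.9 ± 2.92 to 30.8 ± 1.09 in NCI-H596 (difference -0.65 ± 0.0948, SE, edgeR adjusted p = 0.00012). AKAP1, which tethers protein kinase A to mitochondria, fell in A549 by 0.64 (SE 0.0782, edgeR adjusted p = 2.07e-05) and had 0.01 in NCI-H596 (difference 0.65, edgeR adjusted p = 0.000555). AKAP6, a scaffold of the nuclear envelope, fell in NCI-H596 by 0.86 (SE 0.176, edgeR adjusted p = 0.00106). Its difference was -1.25 (edgeR adjusted p = 0.00932), and -1.06 without replicate 1 of A549 at 0 h (edgeR adjusted p = 0.0666). PALM2AKAP2 had 0 and 1 counts in A549 at 0 h, 5 to 58 counts later and 11 to 86 counts in NCI-H596, so no fold is given. The highest mean response of another scaffold in NCI-H596 was 0.49 ± 0.0708 (SE, edgeR adjusted p = 5.29e-05), for EZR, which encodes ezrin and was singled out after its value had been seen. Its response in A549 was 0.58 ± 0.0711 (edgeR adjusted p = 2.24e-05) and the difference -0.09 ± 0.0974 (edgeR adjusted p = 0.535).

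Of 20 tested genes of protein kinase A and protein kinase C and their partners, 2 were called higher and 3 lower in A549, 4 and 5 in NCI-H596, and 2 higher and 0 lower in the difference (median difference -0.01). The 2 were isoforms of protein kinase C. PRKCQ went from 3.24 ± 0.0596 CPM (SD, n = 2) at 0 h to 6.89 ± 0.318 at 6 h in NCI-H596, with 2.40 ± 0.191 and 1.80 ± 0.361 in A549 (difference 1.09 ± 0.259, SE, edgeR adjusted p = 0.00515). PRKCD went from 9.11 ± 1.09 to 17.1 ± 0.798 CPM at 3 h in NCI-H596, with 12.6 ± 0.451 and 13.2 ± 1.38 in A549 (difference 0.77 ± 0.168, edgeR adjusted p = 0.00291). The number called in the difference was 6 without replicate 1 of NCI-H596 at 12 h and 4 without replicate 2 at that time or replicate 1 of A549 at 0 h.

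Of the SH2D family, 4 genes besides SH2D5 were tested, with 0 called higher and 2 lower in A549, 2 and 1 in NCI-H596, and 2 higher and 1 lower in the difference (median difference 0.59). The 2 calls in A549 became 0 or 1 in 14 of the 16 fits without 1 library, all but those without a 12 h library of NCI-H596, and the 3 calls in the difference became 1 without replicate 2 of NCI-H596 at 0 h. SH2D3A, an adaptor gene, had 29.4 ± 5.39 CPM (SD, n = 2) at 0 h and 57.6 ± 6.04 at 6 h in NCI-H596, and 14.5 ± 2.85 and 10.6 ± 0.167 in A549 (difference 1.01 ± 0.167, SE, edgeR adjusted p = 0.000359). SH2D2A had 1 count in each NCI-H596 library at 0 h and 4 to 11 later, and SH2D3C had 33 and 38 counts in NCI-H596 at 0 h and 1 to 8 later, with 0 to 4 in A549, so no fold is given. Among 9 tested genes of BCR, ABR and Rac signalling, 1 was called higher and 1 lower in A549, 2 and 0 in NCI-H596, and 1 and 1 in the difference (median difference 0.03). BCR went from 90.2 ± 5.94 CPM at 0 h to 139 ± 9.57 at 6 h in NCI-H596, with 27.5 ± 2.62 and 24.2 ± 1.18 in A549 (difference 0.68 ± 0.112, edgeR adjusted p = 0.00037). Its relative ABR had a difference of -0.28 ± 0.106 (edgeR adjusted p = 0.058), close to the threshold. Without 1 library the ABR difference lay between -0.34 and -0.25. TIAM2, an activator of Rac, had a difference of -1.001 (edgeR adjusted p = 0.0142), which was -0.80 without replicate 1 of NCI-H596 at 0 h (edgeR adjusted p = 0.122) and -0.91 without replicate 2 of A549 at 0 h (edgeR adjusted p = 0.0508). The mean response of BCR, the partner of SH2D5, was 0.53 in NCI-H596 (edgeR adjusted p = 4.93e-05) and -0.15 in A549 (edgeR adjusted p = 0.179). The direction of SH2D5 was set by the choice, so nothing is read from a comparison with it.

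MET itself had 1240 ± 48.5 CPM (SD, n = 2) in A549 and 370 ± 0.576 in NCI-H596 at 0 h. The difference of its mean responses was -0.05 ± 0.100 (SE, edgeR adjusted p = 0.764).

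The position of the genes was not used to pick them, and the nearest tested gene on each side was read. Of these 8 neighbours, 2 were called in the difference between the lines, beside 29.1% of all genes. CTPS1, a CTP synthase gene 116.9 kb from CITED4, rose by 1.09 ± 0.0835 (SE) in NCI-H596 and fell by 0.38 (SE 0.0796) in A549 (difference 1.48 ± 0.114, edgeR adjusted p = 4.68e-07). MTHFD1L, a gene of mitochondrial folate metabolism 138.1 kb from AKAP12, rose by 0.75 ± 0.0872 in NCI-H596 and had -0.02 in A549 (difference 0.77 ± 0.114, edgeR adjusted p = 0.000146). The kinesin gene KIF17, 1.7 kb from SH2D5, rose in both lines, by 1.17 ± 0.258 in A549 and 1.39 ± 0.295 in NCI-H596, and its difference was 0.22 ± 0.397 (edgeR adjusted p = 0.749). The differences of HP1BP3 (7.4 kb from SH2D5), NFYC (89.5 kb from CITED4), ABRAXAS1 (12.6 kb from GPAT3), NKX6-1 (886.1 kb from GPAT3) and ZBTB2 (5.6 kb from AKAP12) lay between -0.26 and 0.22 (edgeR adjusted p 0.0561 to 0.930). Those of HP1BP3 (-0.24) and NFYC (-0.26) were -0.37 and -0.29 without replicate 1 of NCI-H596 at 12 h, so these values depended on single libraries. NKX6-1 had 5 to 34 counts per library.

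**Figure D5:**
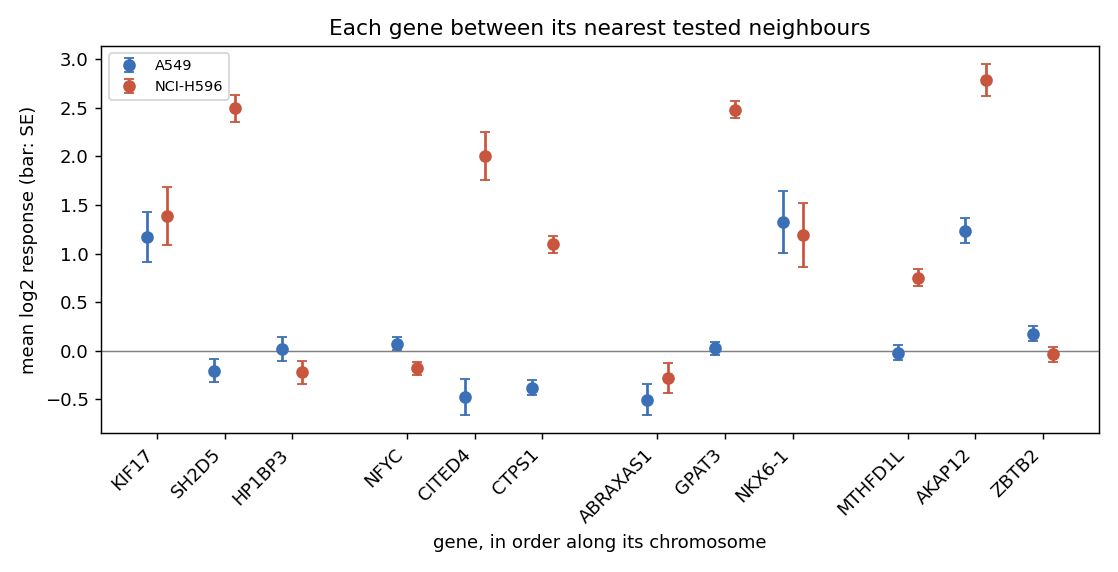
Mean log2 response over 3, 6 and 12 h (bars, SE) of each of the 4 genes and its nearest tested neighbour on either side, in A549 and NCI-H596. CTPS1 is positive in NCI-H596 (1.09) and below 0 in A549 (-0.38). MTHFD1L is positive in NCI-H596 (0.75) and within its SE of 0 in A549 (-0.02), and KIF17 is above 1 in both lines.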

How the data were processed

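PolyA RNA of 2 cell lines was sequenced after 0, 3, 6 or 12 h of HGF, with 2 libraries per condition. The authors deposited 1 table of raw read counts, with a whole number for each gene in each of the 16 libraries. STAR 2.5.0, RSEM 1.3.2 and hg38 stand in the submitters' processing notes, while the counting step and its use of strand are not given in the sources used here. The A549 columns name the line in a slightly different way, and 0 columns were without a sample. The study describes the replicates as biological duplicates.

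The analysis used edgeR 4.0.16 and limma 3.58.1 in R 4.3.3. Genes passed filterByExpr (minimum count of 10, minimum total of 15), TMM scaling was used, and a robust quasi-likelihood model with 1 coefficient per condition was fitted over the 16 libraries. Benjamini-Hochberg adjustment ran over 15067 genes (threshold 0.05). Log2 CPM used a prior count of 2. The floor of a condition was 3 counts per library and covers counting error only. The scripts were tested on simulated data.

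The 4 genes and the lists were chosen with earlier results of these data known. The named genes were the 4 genes, MET, the paralogs and partners CITED1, CITED2, GPAM, GPAT4, BCR and ABR, the up to 4 genes per list with the largest called difference, the 5 most correlated genes, and the nearest tested neighbours (15041 tested genes had a position in GENCODE). Alternatives were DESeq2 size factors, DESeq2 1.42.0, no filter on low counts, at least 10 counts in every library, a block for the replicate number, separate fits of the lines, and fits without 1 library. For correlations they were Spearman, no centring, a prior count of 0.5 and a minimum mean log2 CPM of 3. A most correlated gene and a marker are not reported here. Figures were drawn with matplotlib 3.10.9.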

Additional observations from a re-analysis of the deposited data

Results flagged for a closer look

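Groups of 2 libraries are too small to look for a single library that stands apart. The following genes were called in the edgeR test of the difference of the mean responses (NCI-H596 minus A549, log2), as were 29.1% of all tested genes. They come from the lists, paralogs and neighbours read above, and none is one of the 4 genes. The calls of GPAM, CITED2, AKAP6 and TIAM2 depended on single libraries, as given above.

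Larger in NCI-H596 were CTPS1 (1.48), MGLL (1.32), PRKCQ (1.09), SH2D3A (1.01), AGPAT5 (0.89), AGPAT4 (0.84), MTHFD1L (0.77), PRKCD (0.77), BCR (0.68), AKAP1 (0.65), GPAT4 (0.59) and GPAM (0.52). Smaller in NCI-H596 were AKAP6 (-1.25), TFAP2A (-1.01), TIAM2 (-1.001), CREBBP (-0.86), EP300 (-0.85), AKAP10 (-0.65), TFAP2C (-0.50) and CITED2 (-0.36). For PALM2AKAP2 (-5.39), SH2D3C (-2.60) and SH2D2A (2.99) the fitted value depends on conditions with 0 to 4 counts per library and is no measure of size.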

How the results depend on the processing

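The rises of the 4 genes in NCI-H596 and their lower level at 0 h had the same sign in all alternatives run. Leaving out 1 library moved the difference of the mean responses between 2.46 and 3.00 (SH2D5), 2.22 and 2.85 (CITED4) and 2.39 and 2.503 (GPAT3), and the line difference at 0 h between -2.07 and -1.53, -2.96 and -2.33, and -3.13 and -3.02. With at least 10 counts in every library the GPAT3 line difference at 0 h was -2.99. Among the steps, SH2D5 in NCI-H596 from 6 to 12 h passed with no filter on low counts (-0.35) and lay between -0.49 and -0.22 without 1 library. GPAT3 in NCI-H596 from 3 to 6 h lost its call with no filter (0.31) and with each line fitted alone (0.28), and lay between 0.24 and 0.34. AKAP12 in A549 lay between 0.64 and 0.77 from 3 to 6 h and between -0.65 and -0.53 from 6 to 12 h. Steps near 0 changed sign: SH2D5 in A549 from 3 to 6 h (-0.089 to 0.051), CITED4 there (-0.18 to 0.0047) and AKAP12 in NCI-H596 (-0.43 to 0.073). The cause of these changes was not tested, and a condition left with 1 library is assumed to vary like the others.

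The number of list genes called moved more. Without 1 library it ranged from 3 to 7 (CITED4 partners, NCI-H596), 2 to 14 and 8 to 15 (glycerolipid genes, A549 and NCI-H596), 3 to 6, 2 to 6 and 2 to 7 (AKAP scaffolds, A549, NCI-H596 and the difference), 2 to 6 and 2 to 6 (kinases, A549 and the difference), 0 to 2 and 1 to 3 (SH2D family, A549 and the difference), and 1 to 2 and 1 to 3 (BCR, ABR and Rac, A549 and the difference). With DESeq2 it was 7 for glycerolipid genes in A549, 4 for the kinases in the difference, 0 for the SH2D family in A549 and 1 in its difference. With at least 10 counts in every library, which left fewer genes, it was 4 for the kinases in the difference, 1 for the SH2D family in A549, NCI-H596 and the difference, and 1 for BCR, ABR and Rac in A549. AKAP scaffolds in NCI-H596 had 3 with no filter and 3 with each line fitted alone, and the SH2D family in A549 had 1 with DESeq2 size factors and 1 with no filter. Of the 5 genes most like each gene, 0 (SH2D5, CITED4, GPAT3) and 2 (AKAP12) were shared with Spearman, and 1, 0, 0 and 1 over all 16 libraries without centring.

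Values near 0 that changed sign were MTHFD1L in A549 (0.0020 with at least 10 counts in every library, 0.0015 with the line alone) and AKAP1 in NCI-H596 (-0.014 with at least 10 counts in every library). Without 1 library, MTHFD1L in A549 ranged from -0.094 to 0.075, NKX6-1 in the difference from -0.37 to 0.051, ZBTB2 in NCI-H596 from -0.11 to 0.023, EP300 there from -0.23 to 0.03, MGLL in A549 from -0.0022 to 0.044 and AKAP1 in NCI-H596 from -0.053 to 0.064. SH2D3C in A549, with few counts, ranged from -1.10 to 4.12.

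The labels number the replicates 1 and 2 in each condition. The correlations of the replicate differences between conditions ranged from -0.159 to 0.111, so the samples share only a number. With the replicate number as a block, 42 of the main results were unchanged and 0 changed. Unchanged means the same direction and side of the threshold for a tested value. For an untested value it means a move smaller than the SD between replicates, and for a number of list genes a similar count. Of the other values, 146 were unchanged and 3 lost their call, namely the differences of PALM2AKAP2 (-5.40) and SH2D3C (-2.62) and the A549 response of GPAM (-0.31). The SH2D5 step from 3 to 6 h in NCI-H596 was 0.82 (edgeR adjusted p = 0.00308). Depth limits the genes with few counts.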
